A study of Mus musculus with 8 samples.

Results

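The subject was a set of 9 receptor genes through which growth factors and cytokines guide the maturation of monocytes into macrophages: Csf1r, Csf2ra, Csf2rb, Csf2rb2 and Csf3r for the colony-stimulating factors, Tgfbr1 and Tgfbr2 for transforming growth factor-beta, and Il10ra and Il10rb for interleukin-10. The members were chosen by name, as the rows of these receptors in the table of unique molecular identifiers (UMIs, tags that count single captured molecules), and all 9 were found among its 16889 genes. The table came from single-cell RNA sequencing of colon lamina propria cells sorted for CD11b together with CCR2 or CD64. All 8 mice were female littermates aged 6 to 12 weeks of the CD98hc flox/flox x Cx3cr1CreER-YFP line (CD98hcΔCX3CR1), with a well of the capture chip for each mouse. The 4 control mice received corn oil and the 4 cKO mice received tamoxifen in corn oil, daily for 5 days, with the cells taken on day 7. Controls therefore carry the same floxed alleles, Cre and reporter as cKO mice, and the Cre acts only in cells that use the Cx3cr1 promoter. Effects of tamoxifen itself and of the deletion cannot be told apart. The comparisons asked how the receptors are distributed over the monocyte-like, macrophage-like and other cells, and whether they differ between cKO and control mice.

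Csf1r is a receptor tyrosine kinase whose ligands, CSF1 and interleukin-34, keep monocytes and tissue macrophages alive. Csf3r is the receptor of granulocyte colony-stimulating factor and is best known from neutrophils. Csf2ra is the ligand-specific chain of the GM-CSF receptor, which signals only with a beta chain encoded by Csf2rb, while Csf2rb2 is a mouse-specific copy of that chain that serves the interleukin-3 receptor. Tgfbr2 binds TGF-beta and then phosphorylates Tgfbr1, which passes the signal to SMAD proteins. Il10ra binds interleukin-10 while Il10rb is a chain shared with interleukin-22 and lambda-interferon receptors. In the gut, TGF-beta and interleukin-10 are known for shaping the tolerant state of resident macrophages that descend from blood monocytes.

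On GRCm38, the assembly that mm10 names, GENCODE places Csf3r at chr4:126024550-126044440 and Tgfbr1 at chr4:47353222-47414931, both on the plus strand. Tgfbr2 lies at chr9:116084293-116175360 and Il10ra at chr9:45253837-45269149, both on the minus strand, and Csf2ra lies at chr19:61223957-61228429 on the minus strand. Il10rb lies at chr16:91406164-91425834 on the plus strand, and the annotation holds a read-through locus, Gm21970, over Il10rb on the same strand. Csf2rb2 at chr15:78282507-78305721 and Csf2rb at chr15:78325752-78353847 are copies that face away from each other, with 20030 bases between them. Of the windows of 58 bases (the length of the cDNA read) along the longest transcript of Csf2rb, 15.3% were identical to a stretch of Csf2rb2. None of the 443 windows in the last 500 bases of either transcript was shared, and the kit counts 3′ ends. Assignment of reads between both copies is still uncertain where a read falls in a shared stretch.

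RefSeq promoter windows were at hand for 5 of the 9 members, and the 4 of them whose levels differed between monocyte-like and macrophage-like cells are shown, each from 250 bases before the RefSeq start down to the outermost GENCODE start where that lies further upstream. Both TGF-beta receptor genes, which were higher in macrophage-like cells, come first, at chr4:47352972-47353221 (plus strand) and chr9:116175364-116175613 (minus strand). Csf2ra at chr19:61228430-61228668 (minus strand) and Csf3r at chr4:126024409-126024549 (plus strand), which were lower in macrophage-like cells, follow. Capitals mark matches, on either strand, of GAGGAA (the core bound by PU.1), GGGCGG (the GC box) and CCAAT, and the build is GRCm38.p6.
Tgfbr1: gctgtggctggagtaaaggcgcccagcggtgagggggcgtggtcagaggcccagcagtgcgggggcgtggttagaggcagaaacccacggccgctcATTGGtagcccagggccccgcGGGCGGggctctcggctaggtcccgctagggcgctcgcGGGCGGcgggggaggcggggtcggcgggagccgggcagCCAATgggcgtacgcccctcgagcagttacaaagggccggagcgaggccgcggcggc
Tgfbr2: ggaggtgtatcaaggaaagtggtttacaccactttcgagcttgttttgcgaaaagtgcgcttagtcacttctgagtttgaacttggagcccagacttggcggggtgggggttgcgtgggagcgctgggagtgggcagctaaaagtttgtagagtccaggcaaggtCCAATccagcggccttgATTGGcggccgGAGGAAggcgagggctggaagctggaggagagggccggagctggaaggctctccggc
Csf2ra: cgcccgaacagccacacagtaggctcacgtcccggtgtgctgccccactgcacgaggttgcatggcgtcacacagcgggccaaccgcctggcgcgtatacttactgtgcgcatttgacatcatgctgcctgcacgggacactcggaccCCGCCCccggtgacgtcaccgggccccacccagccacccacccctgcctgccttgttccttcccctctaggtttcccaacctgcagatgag
Csf3r: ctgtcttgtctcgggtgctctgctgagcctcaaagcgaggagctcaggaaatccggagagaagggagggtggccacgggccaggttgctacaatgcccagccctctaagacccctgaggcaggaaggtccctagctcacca
The Tgfbr1 window held 2 GC boxes and 2 CCAAT matches and had a GC content of 74.8%. The Tgfbr2 window held 2 CCAAT matches and 1 GAGGAA match at a GC content of 58.4%. The stretch shown for Csf2ra held 1 GC box and that for Csf3r held none of the 3 motifs. Over the full 250 bases, which run past the outermost GENCODE start, Csf2ra also held 2 GAGGAA matches and Csf3r held 1. Of 32851 windows of 250 bases over all genes, 33.8% held CCAAT, 32.7% held the GC box and 23.3% held GAGGAA, so each match is common and is a description only.

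After filters on depth, genes, mitochondrial share and hemoglobin UMIs, 3213 of 5947 barcodes were kept, between 83 and 724 per mouse, with 497531 to 3762314 UMIs per mouse. Control mouse 3 and cKO mouse 5 gave the fewest cells (85 and 83), and 24 of the 83 cells of cKO mouse 5 were called as doublets. Cell codes are serial numbers that were reassigned by the authors, and 16 kept cells had a code that also occurs in another well. Clustering without the members, the genes of their pathways, Slc3a2 and the reporter gave 9 clusters, which were named from marker lists where their leading genes allowed it. A monocyte-like cluster (375 cells, with Chil3 and Mgst1 among its leading genes), a dendritic cell-like cluster (529 cells, led by Cd209a, Cd24a and Xcr1), a lymphoid-like cluster (184 cells) and a stromal-like cluster (86 cells) were found. Macrophage-like cells formed a full-depth cluster (385 cells, median 5505 UMIs, led by Fcrls, Pf4 and H2-M2) and a low-depth cluster (286 cells, median 1201 UMIs, led by Ccl8, Pf4 and Cela1). The remaining 3 clusters had no class markers among their leading genes and are called by their first genes: Saa3 Il1rn (688 cells), Dusp2 Jund (408 cells) and Il1a Acod1 (272 cells). The summed level of 9 neutrophil marker genes was only 5.09 to 39.7 CPM (UMIs scaled to the same total in every sum) in control mice and 36.2 to 49.1 CPM in cKO mice. Slc3a2, which encodes CD98hc, stood at 337 ± 117 CPM (SD, n = 4) in control and 320 ± 27.9 CPM in cKO mice, and a 3′ count does not check a deletion further upstream in the gene. Within each of the 5 clusters tested between conditions below, its estimate was lower in cKO mice. These log2 fold changes lay between -0.60 and -0.17, and none passed after adjustment.

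The clusters were taken in different shares from control and cKO mice. Dendritic cell-like cells made up 20.3 to 27.7% of the kept cells of control mice and 4.75 to 8.99% of those of cKO mice, and monocyte-like cells 2.35 to 7.29% and 13.3 to 22.7%. The Il1a Acod1 cluster held 1.19 to 4.19% and 4.82 to 26.2% of the cells. Levels are given per cluster as CPM of the UMIs summed per mouse, for mice with at least 20 cells in that cluster. In any sum over several clusters, fewer cells of a type and less RNA per cell cannot be told apart.

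Csf1r, which lies at chr18:61100598-61132149 on the plus strand, was highest in the full-depth macrophage-like cluster, lower in the other monocyte and macrophage clusters and lowest in lymphoid-like and stromal-like cells. In full-depth macrophage-like cells it stood at 976, 989.9 and 952 CPM in control mice 1, 2 and 4 and at 751 CPM in cKO mouse 8, a mean of 917 ± 112 (SD, n = 4). The Saa3 Il1rn cluster followed with 685 ± 62.0 CPM (n = 6), then the Dusp2 Jund cluster with 584 ± 105 (n = 8), the Il1a Acod1 cluster with 565 ± 148 (n = 5) and monocyte-like cells with 505 ± 87.2 (n = 6). The first step of this order, full-depth macrophage-like against Saa3 Il1rn, held within 4 of 4 mice (mean log2 difference 0.43, SD 0.13), and the next, Saa3 Il1rn against Dusp2 Jund, within 6 of 6 mice (0.15, SD 0.13). From the Dusp2 Jund cluster down to low-depth macrophage-like cells, neighbours in this order did not differ beyond the spread between mice. Low-depth macrophage-like cells had 397 ± 166 CPM (n = 6) and dendritic cell-like cells 74.0 ± 37.9 (n = 7), a step that held in 6 of 6 mice (2.09, SD 0.20). Lymphoid-like cells had 28.0 ± 24.2 CPM (n = 6), a level that free RNA in the droplets could also give; its part was not tested. Over the 49 sums of a mouse and a cluster, the genes most like Csf1r among 4741 compared were Fcgr3, an activating Fc receptor (Pearson r = 0.93), Gm5150 (0.92) and the C-type lectin Clec4a3 (0.92), where sums of different clusters share mice.

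The chains of the GM-CSF receptor were spread over the monocyte and macrophage clusters. Csf2ra stood between 107 ± 54.3 CPM in full-depth macrophage-like cells (n = 4) and 138 ± 48.9 CPM in monocyte-like cells (n = 6), and neighbours among the 5 clusters in this range did not differ beyond the spread. Control mouse 4 had the lowest value in 3 of the 5, with 29.6 CPM in full-depth macrophage-like cells, 47.2 CPM in monocyte-like cells and 37.7 CPM in the Saa3 Il1rn cluster. Dendritic cell-like cells had 81.6 ± 43.7 CPM of Csf2ra (n = 7), below full-depth macrophage-like cells in 4 of 4 mice (log2 difference 0.70, SD 0.29), and lymphoid-like cells had 7.32 ± 6.38 CPM. Csf2rb was highest in the Il1a Acod1 (179 ± 65.5 CPM, n = 5), Dusp2 Jund (178 ± 48.3, n = 8) and Saa3 Il1rn (174 ± 17.4, n = 6) clusters, which did not differ beyond the spread. The next step, to monocyte-like cells with 117 ± 31.4 CPM, held in 6 of 6 mice (log2 difference 0.57, SD 0.37), and full-depth macrophage-like cells had 68.2 ± 21.8 CPM (n = 4). The genes most like Csf2rb were Il1b (r = 0.93), Plek (0.90) and Cdkn1a (0.89), and those most like Csf2ra were Tm6sf1 (0.87), Fgr (0.83) and Rassf4 (0.83).

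Csf2rb2 followed the order of Csf2rb at its top, with 71.5 ± 16.7 CPM in the Il1a Acod1 cluster (n = 5), 62.1 ± 41.1 in the Dusp2 Jund cluster (n = 8) and 54.9 ± 14.6 in the Saa3 Il1rn cluster (n = 6). No neighbouring clusters differed beyond the spread for this gene, which gave 645 UMIs over all cells. Its share of the UMIs assigned to both beta chains was 23.9% in the Saa3 Il1rn cluster (95% Wilson interval 21.3 to 26.7%) and 17.7% in monocyte-like cells (13.8 to 22.3%). By mouse this share lay between 20.4 and 26.4% except in cKO mouse 5, with 11.9% (6.18 to 21.8%, from 8 UMIs of Csf2rb2). Its most similar genes were Nlrp3 (r = 0.84), Il1b (0.84) and Prkcd (0.83).

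Csf3r was a gene of the monocyte side. It was highest in the Il1a Acod1 cluster with 106 ± 20.7 CPM (n = 5), above monocyte-like cells with 76.4 ± 19.7 CPM (n = 6) in 5 of 5 mice (log2 difference 0.52, SD 0.22). The Dusp2 Jund (74.5 ± 27.8, n = 8) and Saa3 Il1rn (64.2 ± 18.3, n = 6) clusters did not differ from their neighbours above them beyond the spread. Full-depth macrophage-like cells had 35.7, 34.2, 41.4 and 42.5 CPM in control mice 1, 2 and 4 and cKO mouse 8, below the Saa3 Il1rn cluster in 4 of 4 mice (0.54, SD 0.27). In dendritic cell-like cells 6 UMIs of Csf3r were seen in 529 cells, although these cells were the deepest (median 9156 UMIs). Stromal-like cells had 0 UMIs. Its most similar genes were Tlr2, Cd14 and Cybb, all genes of the innate response of phagocytes (r = 0.92, 0.92 and 0.91).

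Both TGF-beta receptors rose from the monocyte-like to the full-depth macrophage-like cells, and Tgfbr2 was in addition a gene of stromal cells. Tgfbr1 stood at 135, 144, 124 and 128 CPM in full-depth macrophage-like cells of control mice 1, 2 and 4 and cKO mouse 8, a mean of 133 ± 8.80 CPM. The Dusp2 Jund cluster had 118 ± 34.1 CPM (n = 8), which did not differ from it beyond the spread, and the Saa3 Il1rn cluster had 67.7 ± 12.4 (n = 6), lower than Dusp2 Jund in 6 of 6 mice (log2 difference 0.68, SD 0.45). Monocyte-like cells had 36.7 ± 12.7 CPM (n = 6) and dendritic cell-like cells 18.7 ± 8.399 (n = 7), and the clusters from Il1a Acod1 down did not differ from their neighbours beyond the spread. Tgfbr2 stood at 82.9, 125, 101 and 135 CPM in the same 4 sums of full-depth macrophage-like cells, above the Dusp2 Jund cluster (52.4 ± 18.7, n = 8) in 4 of 4 mice (0.82, SD 0.23). Monocyte-like cells had 16.4 ± 10.3 CPM of Tgfbr2 (n = 6) and the Il1a Acod1 cluster 7.34 ± 11.2 (n = 5, from 7 UMIs). Stromal-like cells had 176 CPM in control mouse 1, the only mouse with at least 20 such cells, and 47 of all 86 stromal-like cells held a UMI of Tgfbr2. The genes most like Tgfbr1 were Gnaq (r = 0.72), Dclre1c (0.72) and Tet3 (0.70), and those most like Tgfbr2 were Tmcc3 (0.74), Frmd4b (0.72) and Nisch (0.69).

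The interleukin-10 receptor chains differed from each other in their order. Il10ra, whose locus is overlapped by Gm20612 on the other strand, was highest in the Dusp2 Jund cluster with 197 ± 42.6 CPM (n = 8), then full-depth macrophage-like cells with 149 ± 31.2 (n = 4), monocyte-like cells with 137 ± 35.7 (n = 6), the Saa3 Il1rn cluster with 126 ± 27.9 (n = 6) and the Il1a Acod1 cluster with 118 ± 14.8 (n = 5). Neighbours among these 5 clusters did not differ beyond the spread. The step to dendritic cell-like cells with 58.7 ± 12.7 CPM held in 5 of 5 mice (log2 difference 0.88, SD 0.28). Il10rb was highest in full-depth macrophage-like cells with 219, 222, 172 and 234 CPM in control mice 1, 2 and 4 and cKO mouse 8, above the Saa3 Il1rn cluster (149 ± 21.0, n = 6) in 4 of 4 mice (0.50, SD 0.26). It did not fall to the floor in any cluster, with 91.4 CPM in the stromal-like cells of control mouse 1, 62.2 ± 21.6 in lymphoid-like cells (n = 6) and 42.5 ± 9.93 in dendritic cell-like cells (n = 7). The genes most like Il10ra were Zfp36 (r = 0.86), an inhibitor of inflammatory mRNAs, Picalm (0.85) and Rnf149 (0.85), and those most like Il10rb were the complement receptor C5ar1 (0.84) and the lysosomal proteases Ctsb (0.83) and Lgmn (0.82).

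**Figure D1:**
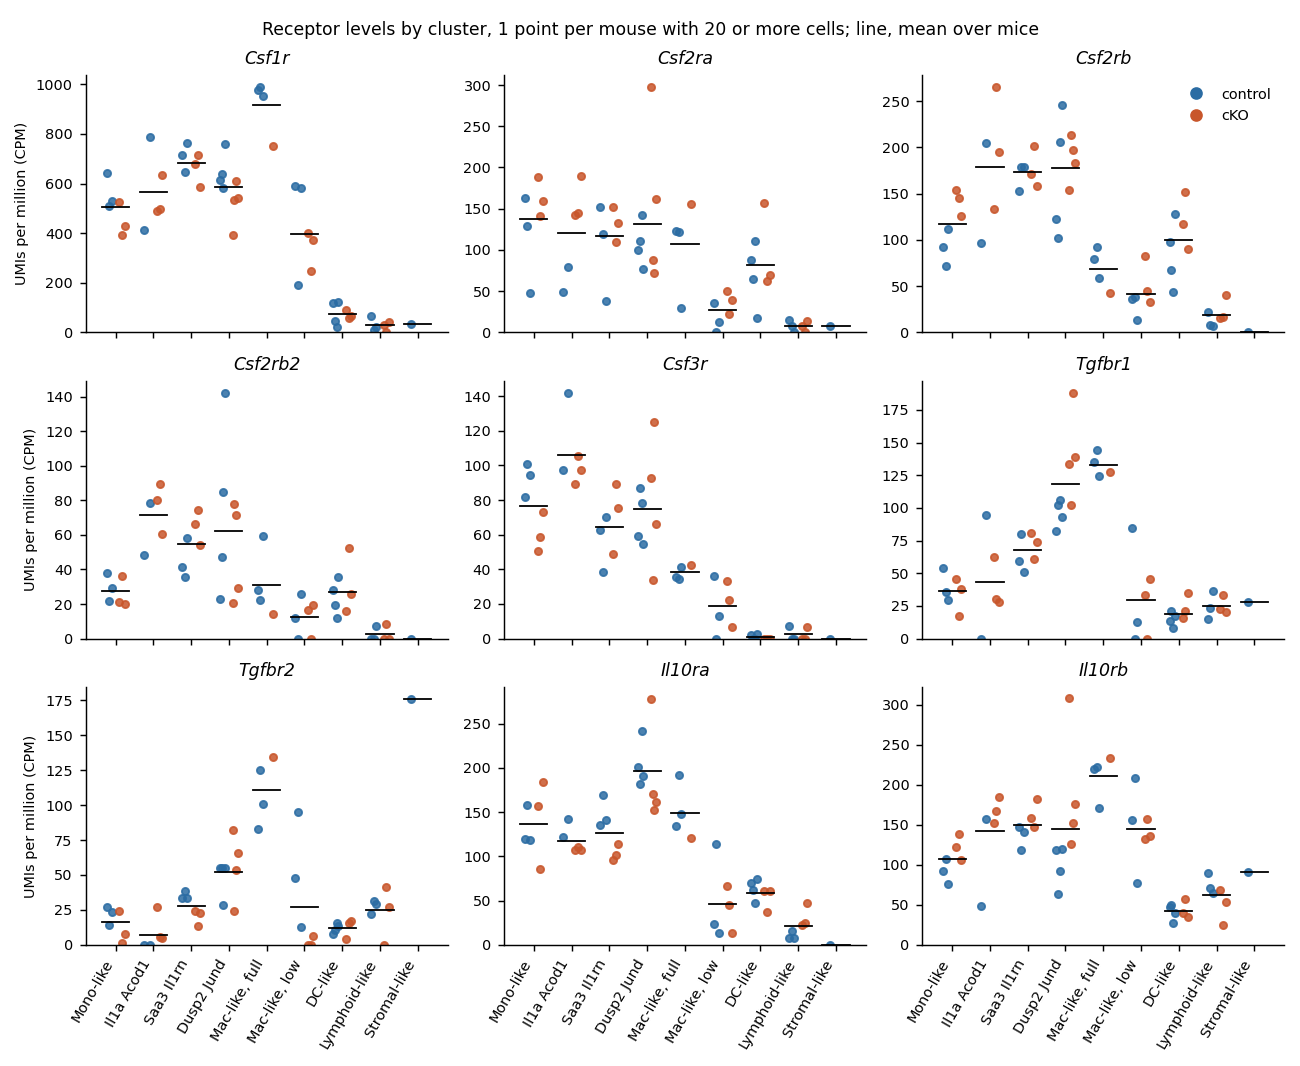
Level of each receptor gene (vertical axis, CPM of the summed UMIs) in each of the 9 clusters (horizontal axis), with 1 point for each mouse with at least 20 cells, control mice in blue and cKO mice in orange, and a line at the mean over mice. Csf1r, Il10rb and, beside stromal-like cells, Tgfbr2 peak in full-depth macrophage-like cells, while Csf3r peaks in the Il1a Acod1 cluster. The mean of Tgfbr1 is highest in full-depth macrophage-like cells but does not differ from Dusp2 Jund beyond the spread. Csf2rb is similarly high in the Il1a Acod1, Dusp2 Jund and Saa3 Il1rn clusters.

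Shares of cells with a UMI were compared after each cell was thinned to 1000 UMIs, since the clusters differed in depth. Csf1r was then detected in 61.7% of 376 full-depth macrophage-like cells (Wilson 95% interval 56.7 to 66.5%), in 52.2% of 688 Saa3 Il1rn cells, in 32.4% of 373 monocyte-like cells (27.9 to 37.4%) and in 25.9% of 197 low-depth macrophage-like cells (20.3 to 32.4%). In lymphoid-like cells, which should lack Csf1r, the share was 1.10% of 181 cells, and the unthinned shares were 96.9% in full-depth macrophage-like (median 5505 UMIs) and 9.78% in lymphoid-like cells (median 3569.5 UMIs). Tgfbr2 was detected in 10.6% of full-depth macrophage-like cells (7.91 to 14.2%) and 1.34% of monocyte-like cells (0.574 to 3.10%), and Tgfbr1 in 11.4 and 4.83% of them. Csf3r was detected in 8.87% of Dusp2 Jund cells (6.39 to 12.2%) and 0.388% of dendritic cell-like cells (0.106 to 1.40%), and in 0 of 181 lymphoid-like cells, where the limit set by a count of 0 is 1.66% of cells with a UMI at the thinned depth. Unthinned, 2 of 184 lymphoid-like cells held a UMI of Csf3r. Of the 3 receptor pairs, joint detection in unthinned cells was highest for Il10ra with Il10rb in full-depth macrophage-like cells, at 149 of 385 cells (38.7%), where the product of both single shares was 39.6%. Tgfbr1 and Tgfbr2 were found together in 83 of these 385 cells (21.6%, product 18.9%) and in 6 of 375 monocyte-like cells (1.60%, product 0.956%). Csf2ra together with a beta chain was found in 203 of 688 Saa3 Il1rn cells (29.5%, product 29.2%). The order of pairs did not hold at 1000 UMIs per cell. There Il10ra with Il10rb was found in 5 of 376 full-depth macrophage-like cells (1.33%, product 2.85%) and 9 of 373 monocyte-like cells (2.41%). The highest thinned share was that of Csf2ra with a beta chain in Il1a Acod1 cells (8 of 249, 3.21%). Intervals and limits cover counting error only.

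**Figure D2:**
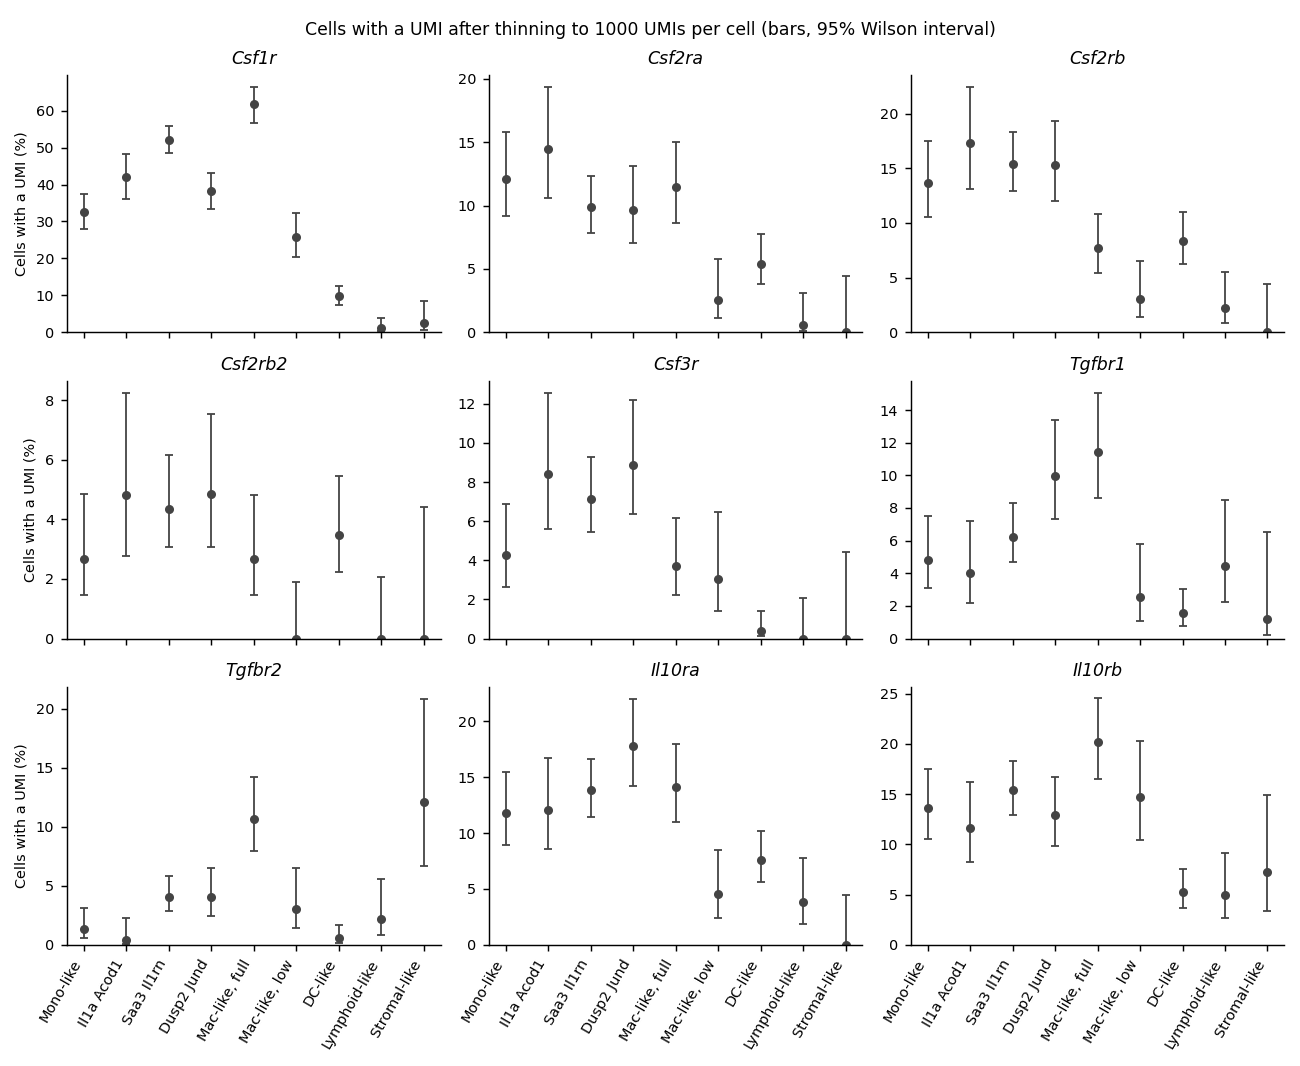
Share of cells with at least 1 UMI of each receptor gene (vertical axis, percent) in each cluster after thinning every cell to 1000 UMIs, with 95% Wilson intervals. Cells of all mice are pooled. Csf1r is found in 61.7% of full-depth macrophage-like and 32.4% of monocyte-like cells, and in 1.10% of lymphoid-like cells.

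Macrophage-like cells (both clusters summed) were then set against monocyte-like cells of the same mouse. Of the 9 receptors, 4 rose in macrophage-like cells (Csf1r, Tgfbr1, Tgfbr2 and Il10rb), 3 fell (Csf3r, Csf2ra and Csf2rb) and 2 did not pass the test (Csf2rb2 and Il10ra), where 22.9% of all 8489 genes tested passed it in either direction, 11.8% higher and 11.2% lower. The comparison used 6 mice with at least 20 cells of both kinds (control mice 1, 2 and 4 and cKO mice 6, 7 and 8), with the mouse as a term, edgeR's quasi-likelihood test and Benjamini-Hochberg adjustment over all genes tested. Pooled over these mice, most macrophage-like cells of control mice were in the full-depth cluster (309 of 448), while most of those of cKO mice were in the low-depth cluster (124 of 186). Control mouse 4 went the other way from the control total, with 30 full-depth and 38 low-depth cells. With the low-depth cluster alone, none of the 4 receptors that rose passed the test. The clusters were drawn from other genes of the same cells, and the p-values therefore describe mice, not an independent definition of the cell types.

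Csf1r stood at 641, 509.7 and 531 CPM in monocyte-like cells of control mice 1, 2 and 4 and at 527, 393 and 428 CPM in those of cKO mice 6, 7 and 8. In macrophage-like cells the values were 939, 943 and 837 CPM in the same control mice and 534, 749.5 and 553 CPM in the cKO mice. All 6 mice were higher in macrophage-like cells, although the ranges of both cell types overlapped and cKO mouse 6 rose only from 527 to 534 CPM. The log2 fold change was 0.62 (SE 0.13, edgeR Benjamini-Hochberg adjusted p = 0.000149). It was 0.81 in the full-depth cluster alone and -0.38 in the low-depth cluster alone.

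Tgfbr2 changed most among the members. Monocyte-like cells had 27.2, 14.4 and 23.6 CPM in the control mice and 23.9, 1.58 and 7.56 CPM in the cKO mice, while macrophage-like cells had 79.6, 123 and 73.1 CPM and 46.7, 39.4 and 67.8 CPM. The ranges did not overlap, and the log2 fold change was 2.24 (SE 0.33, edgeR Benjamini-Hochberg adjusted p = 4.37e-08). Its kinase partner Tgfbr1 had 54.3, 35.9 and 29.5 CPM in monocyte-like cells of the control mice and 45.2, 17.4 and 37.8 CPM in those of the cKO mice, and 130.3, 135.5 and 89.4 CPM against 107, 124 and 84.8 CPM in macrophage-like cells. Its ranges did not overlap either, with a log2 fold change of 1.68 (SE 0.24, edgeR Benjamini-Hochberg adjusted p = 2.92e-08). In the low-depth cluster alone, with 0 to 7 UMIs of either gene in a mouse, the log2 fold changes were 0.40 for Tgfbr2 and -0.21 for Tgfbr1, neither past the threshold.

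Il10rb had 92.4, 108 and 76.7 CPM in monocyte-like cells of the control mice and 122, 139 and 106 CPM in those of the cKO mice. Macrophage-like cells had 213, 221 and 142 CPM and 200.1, 197 and 183 CPM, above the monocyte-like cells in all 6 mice and without overlap of the ranges. The log2 fold change was 0.87 (SE 0.17, edgeR Benjamini-Hochberg adjusted p = 3.93e-05). It was 0.37 in the low-depth cluster alone, not past the threshold. The ligand-binding chain Il10ra did not follow: it was higher in macrophage-like cells in 3 mice and lower in 3, with 137 ± 35.7 CPM in monocyte-like and 120.1 ± 40.0 CPM in macrophage-like cells (SD, n = 6), and a log2 fold change of -0.17 (95% interval -0.55 to 0.21, edgeR Benjamini-Hochberg adjusted p = 0.609). Its sign turned with the cells used: the log2 fold change was 0.05 for the full-depth cluster alone and -1.94 for the low-depth cluster alone (edgeR Benjamini-Hochberg adjusted p = 1.62e-06).

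Csf3r had 81.5, 101 and 94.3 CPM in monocyte-like cells of the control mice and 50.5, 58.4 and 73.1 CPM in those of the cKO mice. Macrophage-like cells had 35.7, 32.2 and 32.5 CPM and 33.4, 33.8 and 23.7 CPM, so the ranges did not overlap and all 6 mice fell. The log2 fold change was -1.23 (SE 0.26, edgeR Benjamini-Hochberg adjusted p = 0.000122), and in cKO mice alone it was -1.01 (edgeR Benjamini-Hochberg adjusted p = 0.0695). Csf2ra was lower in macrophage-like cells in all 6 mice, with 163, 129 and 47.2 CPM (control) and 189, 141 and 159 CPM (cKO) in monocyte-like cells against 114, 114 and 24.4 CPM and 100.1, 90.2 and 94.98 CPM. Its log2 fold change was -0.57 (SE 0.19, edgeR Benjamini-Hochberg adjusted p = 0.0207), and the call was lost under 8 of 17 alternatives, among them the full-depth cluster alone (-0.23). Csf2rb was lower in 5 of 6 mice, with 117 ± 31.4 CPM in monocyte-like and 73.6 ± 26.8 CPM in macrophage-like cells, a log2 fold change of -0.63 (SE 0.21, edgeR Benjamini-Hochberg adjusted p = 0.0218), and lost the call under 6 of 17 alternatives, among them leaving out control mouse 4 (-0.57) or cKO mouse 8 (-0.43). Csf2rb2 was lower in 5 of 6 mice but by little, from 27.8 ± 8.004 to 26.0 ± 11.6 CPM (log2 fold change -0.11, 95% interval -0.79 to 0.57).

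**Figure D3:**
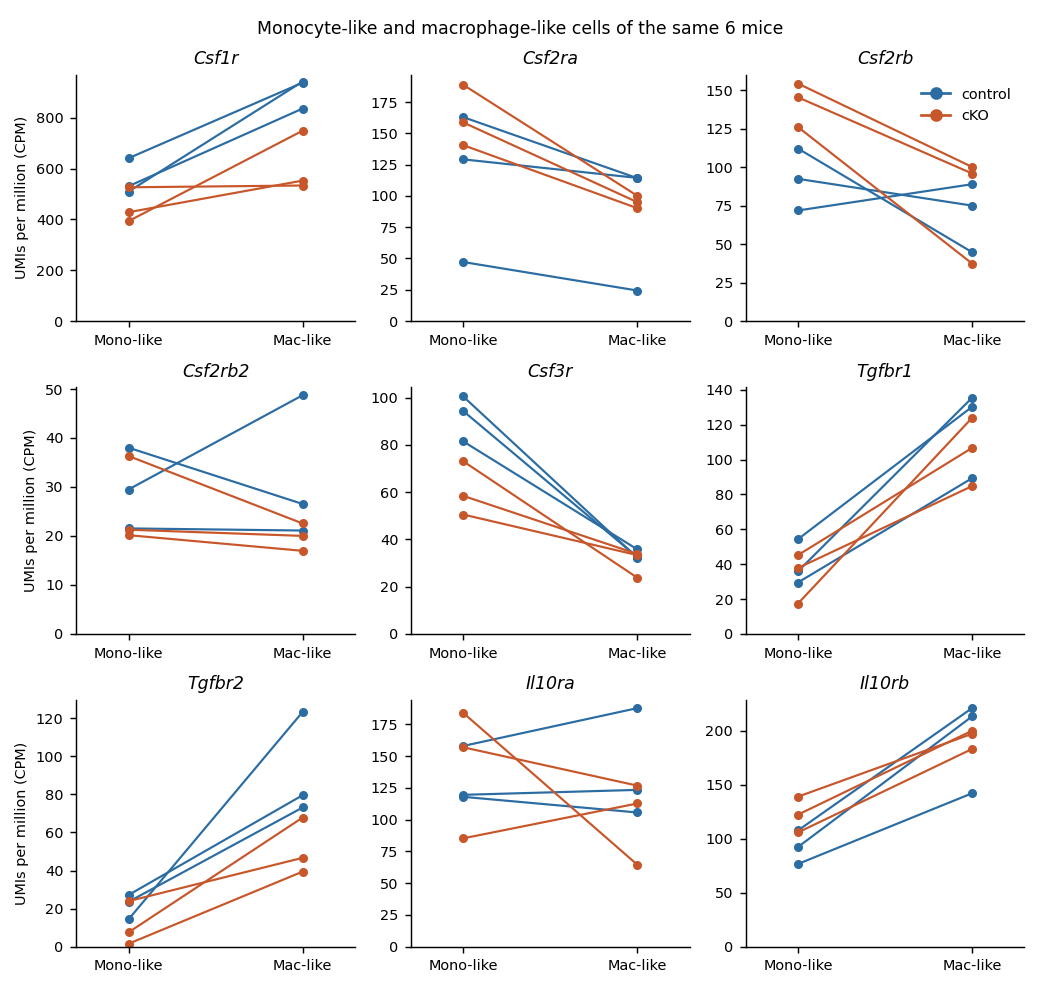
Level of each receptor gene (vertical axis, CPM) in the monocyte-like and macrophage-like cells of the same mouse, joined by a line, for 3 control mice (blue) and 3 cKO mice (orange). Lines of Tgfbr1, Tgfbr2, Il10rb and Csf1r rise in all 6 mice, those of Csf3r and Csf2ra fall in all 6. Those of Il10ra go both ways.

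Other genes of these pathways differed between the same cells as well. Of 83 listed genes, 71 were tested and 15 were higher and 18 lower in macrophage-like cells, beside 22.9% of all genes in both directions together, with a median log2 fold change of 0.02 beside 0.07 over all genes tested. Among ligands, Il10 was higher (log2 fold change 1.91, 5 of 6 mice) and Tgfb1 lower (-1.08, 6 of 6 mice, 216 ± 102 against 98.4 ± 47.4 CPM). Among 11 related receptor chains tested, 2 rose and 2 fell: Acvrl1, a type I receptor of the TGF-beta family, rose by 1.24 and the interferon receptor chain Ifnar1 by 0.76, while the interleukin-6 receptor Il6ra fell by 1.29 and the interferon-gamma receptor Ifngr1 fell by 0.61. Of 20 signal transducers, 1 rose (Pik3r1, log2 fold change 1.07) and 6 fell, led by the Src-family kinase Fgr (-1.69), Stat3 (-1.39), Jak2 (-1.30) and Plcg2 (-1.205).

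Of 17 inhibitors tested, 4 rose and 0 fell by edgeR. Pmepa1, a TGF-beta target that restrains SMAD signalling, had 0 UMIs in the monocyte-like cells of these mice and 142 in their macrophage-like cells. Its macrophage-like levels were 48.4, 88.9 and 52.8 CPM in control mice 1, 2 and 4. In cKO mice 6, 7 and 8 they were 26.7, 11.3 and 3.39 CPM. No fold is given, because control and cKO mice gave different shares of both cell types to the pooled counts. Ski rose by 1.23, the phosphatase gene Inpp5d by 0.77 and Socs3 by 0.43 on the log2 scale. Of 21 transcription factors of macrophage maturation and target genes tested, 7 rose and 9 fell. Maf, a factor of mature macrophages, showed the widest difference with 14.7 ± 7.95 against 171 ± 51.4 CPM (log2 fold change 3.60, 6 of 6 mice), while Nfil3 (-2.26) and Nr4a1 (-2.06) were lower.

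Between conditions, with all cells of a mouse summed, none of the 9 receptors passed the test, where 4.48% of 11387 genes did (2.99% higher and 1.48% lower in cKO). By edgeR, 4 members had an unadjusted p under 0.05 (Csf2ra, Csf2rb, Csf3r and Il10rb), and DESeq2 called 2 of them, Csf3r and Il10rb. Il10rb stood at 119, 110.1, 74.7 and 92.6 CPM in control mice 1 to 4 and at 179, 125, 140.4 and 137 CPM in cKO mice 5 to 8. Every cKO mouse was above every control mouse, as for 4.00% of all genes tested, and the log2 fold change was 0.62 (SE 0.17, edgeR Benjamini-Hochberg adjusted p = 0.0577). Csf3r stood at 32.7, 20.5, 33.9 and 38.7 CPM in control mice and at 58.3, 36.9, 71.2 and 52.5 CPM in cKO mice. Only cKO mouse 6 lay within the control range on this scale, and none did when median-ratio size factors replaced totals, under which 5.64% of all genes had every cKO mouse higher. The log2 fold change of Csf3r was 0.92 (SE 0.25, edgeR Benjamini-Hochberg adjusted p = 0.0589), and the call was gained without control mouse 4 (1.05) or without cKO mouse 6 (1.08). Without the lymphoid-like, stromal-like and dendritic cell-like clusters the log2 fold changes were 0.24 for Il10rb and 0.32 for Csf3r.

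Csf2ra varied widely, with 108, 84.7, 134 and 30.6 CPM in control mice and 227.1, 134, 113 and 119 CPM in cKO mice, and the groups overlapped (log2 fold change 0.83, SE 0.37, edgeR Benjamini-Hochberg adjusted p = 0.226). The lowest value was that of control mouse 4 and the highest that of cKO mouse 5. Csf2rb had 100.5, 83.5, 102 and 138 CPM against 119, 141, 181 and 121 CPM (0.52, SE 0.20, edgeR Benjamini-Hochberg adjusted p = 0.167), and its copy Csf2rb2 29.2, 21.4, 32.3 and 49.5 CPM against 16.1, 40.5, 59.1 and 33.7 CPM (0.38, SE 0.33). Both sets of values overlapped between groups. Tgfbr2 was the only member with a lower mean in cKO mice, at 40.9, 51.4, 47.5 and 33.0 CPM in control and 52.3, 23.6, 14.1 and 28.4 CPM in cKO mice (-0.60, SE 0.30, edgeR Benjamini-Hochberg adjusted p = 0.294). Here cKO mouse 5 was above all control mice and the other cKO mice were below them. Summed stromal marker levels were 554 to 1944 CPM in control and 182 to 707 CPM in cKO mice over 7 genes, which is given because Tgfbr2 was high in stromal-like cells; their part in the result was not tested. Without the lymphoid-like and stromal-like clusters the log2 fold change of Tgfbr2 was -0.51, and without the dendritic cell-like cluster as well it was -1.02 (edgeR Benjamini-Hochberg adjusted p = 0.170). With each mouse left out it lay between -0.85 (without cKO mouse 5) and -0.34 (without cKO mouse 7).

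The remaining receptors were close in both conditions. Csf1r had 502, 395, 290.3 and 464 CPM in control mice and 379.9, 452, 492 and 430.4 CPM in cKO mice (log2 fold change 0.19, 95% interval -0.15 to 0.52). Without the lymphoid-like, stromal-like and dendritic cell-like clusters its log2 fold change was -0.38, and those of Tgfbr1 and Il10ra were -0.36 and -0.26, so the sign of these 3 differences depends on which cells are summed. Tgfbr1 had 56.0 ± 9.36 CPM in control and 62.5 ± 14.3 CPM in cKO mice (SD, n = 4 each; 0.22, 95% interval -0.15 to 0.59), and Il10ra had 109 ± 5.66 and 113 ± 20.9 CPM (0.13, 95% interval -0.16 to 0.43).

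Levels were also computed with the same cluster weights in every mouse. Each weight was the mean over mice of that cluster's share of UMIs, so a mouse with few dendritic cell-like cells counts them as much as any other. Unlike for the cluster levels above, no minimum of cells was applied here. Sums of few cells therefore carry the full weight of their cluster. Among these were 2 monocyte-like, 7 full-depth macrophage-like and 2 Il1a Acod1 cells in control mouse 3. In cKO mouse 5 there were 7 dendritic cell-like cells and 1 stromal-like cell. With these weights Il10rb stood at 109, 98.7, 107 and 99.9 CPM in control mice and at 149.5, 124, 124 and 129 CPM in cKO mice. The means were 104 ± 5.28 and 132 ± 12.2 CPM. Every cKO mouse was above every control mouse, as for 2.45% of all genes tested, and the log2 difference was 0.31 (two-sided exact permutation test, p = 0.0286, the smallest that 70 arrangements of 8 mice allow, for 9 genes looked at). With graph-based clusters it was 0.23 (exact permutation p = 0.2). Without control mouse 3 the log2 difference of Il10rb was 0.32, and without cKO mouse 5 it was 0.26. Tgfbr1 was 55.5 ± 5.04 against 65.4 ± 3.46 CPM (0.21, exact permutation p = 0.0571), where cKO mouse 6 (62.3 CPM) lay just below control mouse 2 (62.4 CPM). For Csf3r the standardised log2 difference was 0.06, with 42.2, 33.97, 44.5 and 47.3 CPM in control and 52.1, 30.9, 51.6 and 44.1 CPM in cKO mice (exact permutation p = 0.686). Its edgeR log2 fold change of 0.92 over all cells is another measure, since standardised differences are taken on log2(CPM + 10). In CPM, the means of Csf3r over all cells were 31.5 in control and 54.7 in cKO mice, against 42.0 and 44.7 when standardised. Csf2ra differed by 0.56 (exact permutation p = 0.343), and by 0.21 without control mouse 4, 0.33 without cKO mouse 5 and 0.81 without control mouse 3. Tgfbr2 differed by -0.24 (p = 0.257 by the exact permutation test) and Csf1r by -0.14 (exact permutation p = 0.429), and the groups overlapped for all 3 genes. Csf2rb, Csf2rb2 and Il10ra differed by 0.17, -0.02 and -0.08, and these groups overlapped too.

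**Figure D4:**
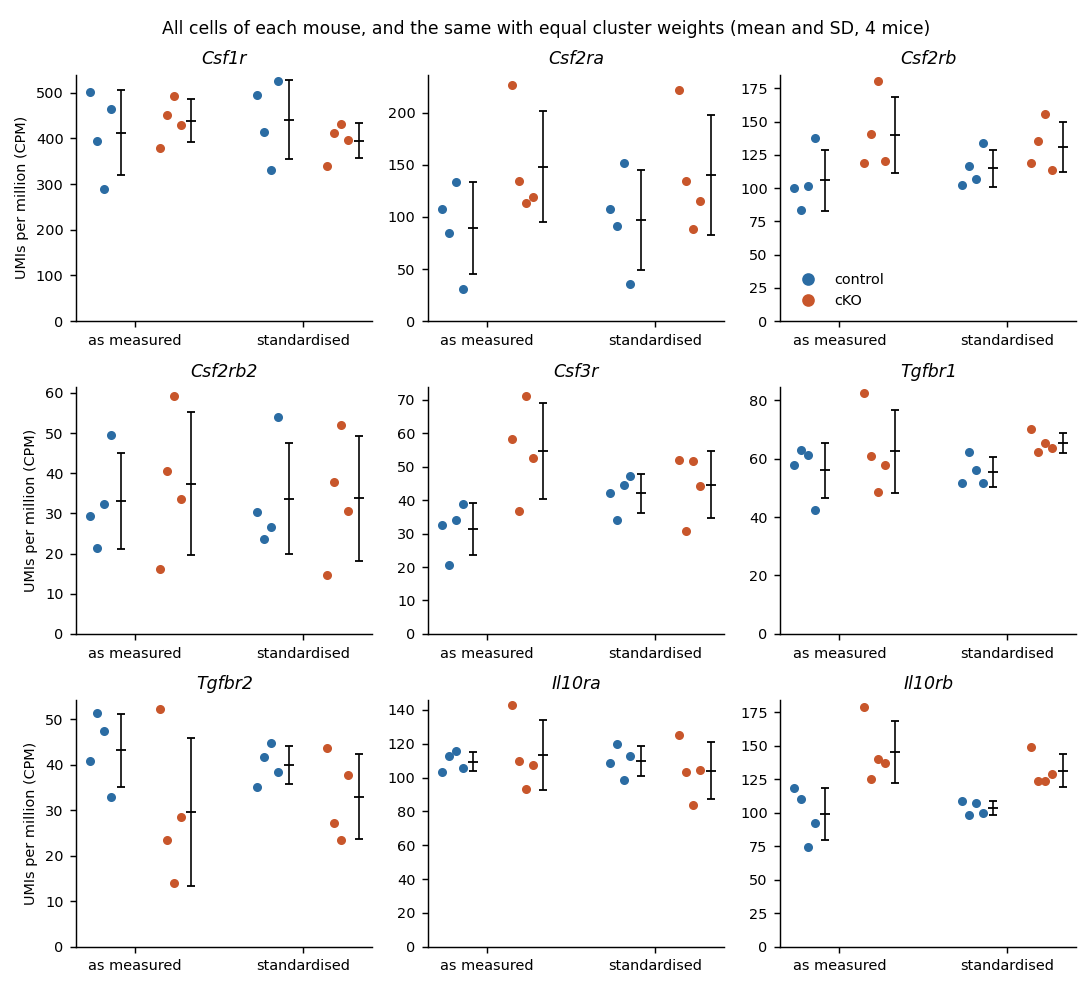
Level of each receptor gene per mouse (vertical axis, CPM) over all cells as measured (left) and with the same cluster weights in every mouse (right), control in blue and cKO in orange, with mean and SD of 4 mice in black. The means of Csf3r are 31.5 and 54.7 CPM as measured and 42.0 and 44.7 CPM when standardised, while the points of Il10rb do not overlap in either form.

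Within clusters, none of the 9 receptors passed the test in any of the 5 clusters tested, each with at least 3 mice of each condition (edgeR on sums of at least 20 cells, Benjamini-Hochberg adjustment). The lymphoid-like and stromal-like clusters were left out of this fit, although the lymphoid-like cluster had 3 mice of each condition. Over all 10710 genes tested, 1.12% passed in the Saa3 Il1rn cluster, 0.364% in the Dusp2 Jund cluster, 0.224% in dendritic cell-like, 0.177% in monocyte-like and 0.084% in low-depth macrophage-like cells. Unadjusted p-values under 0.05 were given by edgeR to 3 of these 45 tests, for Il10rb, Csf2rb and Tgfbr2 in 3 different clusters, and DESeq2 called none either. The lowest p of a member was that of Il10rb in the Dusp2 Jund cluster, with 118.5, 63.1, 92.2 and 120.2 CPM in control and 308, 126, 152 and 176 CPM in cKO mice. Every cKO mouse was above every control mouse there, as for 1.48% of genes, at a log2 fold change of 0.83 (SE 0.27, edgeR Benjamini-Hochberg adjusted p = 0.297). In monocyte-like cells, Csf2rb had 92.4, 71.8 and 112 CPM in control and 154, 145 and 126 CPM in cKO mice (0.71, SE 0.33, edgeR Benjamini-Hochberg adjusted p = 0.660), without overlap. Csf3r went the other way in monocyte-like cells, with 92.1 ± 9.71 CPM in control and 60.7 ± 11.4 CPM in cKO mice (n = 3 each; -0.49, SE 0.35), also without overlap, where 12.7% of all genes did not overlap there in 1 direction or the other.

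In the Saa3 Il1rn cluster, Tgfbr2 had 35.3 ± 2.92 CPM in control and 20.2 ± 5.98 CPM in cKO mice and Il10ra had 148 ± 18.4 and 104 ± 9.61 CPM (n = 3 each), both without overlap, as for 8.90% of genes, at log2 fold changes of -0.77 (SE 0.39) and -0.47 (SE 0.25). Tgfbr2 differed most in the low-depth macrophage-like cluster, where control mice 1, 2 and 4 had 48.1, 94.8 and 12.97 CPM and cKO mice 6, 7 and 8 had 0, 0 and 6.51 CPM. Those values rest on 10 UMIs in control and 1 UMI in cKO mice (log2 fold change -3.41, SE 1.18, edgeR Benjamini-Hochberg adjusted p = 0.651), and the log2 fold change was -6.89 without cKO mouse 8 and -2.92 without control mouse 2. Here 2.78% of all genes had every cKO mouse below every control mouse, which Tgfbr2 did as well. The full-depth macrophage-like cluster had only 1 cKO mouse with at least 20 cells, mouse 8, whose 135 CPM of Tgfbr2 lay above those of the 3 control mice (82.9 to 125 CPM). With both macrophage-like clusters summed, where control cells come mostly from the full-depth and cKO cells mostly from the low-depth cluster, Csf1r (-0.61), Il10ra (-0.60) and Tgfbr2 (-0.86) had unadjusted p-values under 0.05 by edgeR. None of the members passed after adjustment, where 0.745% of 10732 genes did. The difference of the condition effect between low-depth macrophage-like and monocyte-like cells was tested as well, and 0 of 10710 genes passed by edgeR (527 had an unadjusted p under 0.05). That fit had no term for the mouse, although both clusters came from the same mice, and all clusters shared 1 estimate of the spread. The estimate for Tgfbr2 was -2.32 (SE 1.46) and those of the other members lay between -0.52 and 0.50.

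**Figure D5:**
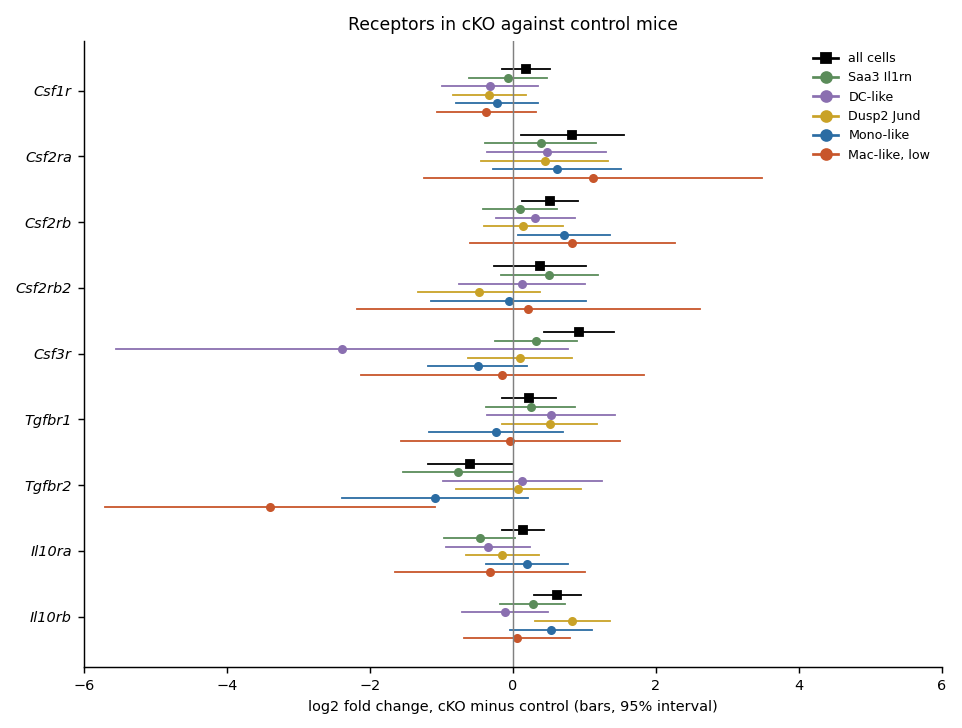
log2 fold change of each receptor gene, cKO minus control (horizontal axis), in all cells (black squares) and in each of 5 clusters (coloured circles), with approximate 95% intervals built from the SE. In all cells the intervals of Il10rb (0.29 to 0.95), Csf3r (0.43 to 1.41), Csf2ra and Csf2rb lie above 0 before adjustment over genes, and the widest intervals are those of Csf3r in dendritic cell-like cells and of several genes in low-depth macrophage-like cells.

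Of 79 pathway genes tested in all cells, 3 were higher and 2 lower in cKO mice, beside 2.99% of all genes higher and 1.48% lower, with a median log2 fold change of 0.20 beside -0.03 over all genes. The ligand Csf3, which binds Csf3r, was higher (log2 fold change 4.61, SE 1.12, edgeR Benjamini-Hochberg adjusted p = 0.0388), with 0.266, 0, 0 and 1.68 CPM in control mice and 0, 2.42, 37.4 and 6.12 CPM in cKO mice, so that most of its 117 UMIs came from cKO mouse 7. It passed the test in the Saa3 Il1rn cluster as well (3.97), and its highest mean level was in the Il1a Acod1 cluster (37.0 CPM). Among transcription factors and targets, Cebpb (1.36) and Pim1 (1.06) were higher, while Irf8 (-0.89), a factor of dendritic cells and macrophages, and the prostaglandin-degrading enzyme Hpgd (-1.67) were lower. The count of these calls depended on single mice, falling to 0 without control mouse 2 or without cKO mouse 7. Of the ligands of the other receptors, named after their values were seen, Csf1 (189.8 CPM), Il34 (70.3 CPM) and Tgfb2 (162 CPM) were highest in the stromal-like cells of control mouse 1, and Il10 was highest in lymphoid-like cells (198 CPM, mean of 6 mice).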

How the data were processed

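Alignment to mm10 was done by the authors with STAR within Cell Ranger (STAR 2.5.3a and R 3.5.0 are named in the submitters' processing notes) and they deposited a table of raw UMI counts per gene and cell, with cell barcodes renamed by well. Cell Ranger merged the wells without down-sampling. Barcodes were kept at a log10 UMI count of at least 2.8, a log10 gene count of at least 2.6 and a mitochondrial share of at most 5%. Those with any UMI of a hemoglobin gene were dropped. The kept cells were clustered with scran 1.30.0 and Ward linkage into 9 clusters, leaving out of the clustering the members, their pathway genes and 209 genes listed in the study's supplement. Doublets called by Scrublet (73 cells) were kept, and leaving them out was an alternative. Clusters were named from marker lists. The members, gene lists and tests were chosen with earlier results of these data known.

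UMIs were summed over each mouse, and over each cluster within a mouse that held at least 20 cells, and tested with edgeR 4.0.16 (quasi-likelihood, TMM factors, Benjamini-Hochberg adjustment over all genes tested, called at 0.05). A gene was tested where at least 3 sums had over 1 CPM and at least 20 cells held a UMI of it. The edgeR fits of all cells, of macrophage-like against monocyte-like cells and of each cluster were tested on simulated data first. The difference of effects between clusters, the sum of both macrophage-like clusters and the alternatives were not. DESeq2 1.42.0 and limma 3.58.1 were alternatives. The Cre acts in each animal, so the mouse is the replicate, with 4 per group and 1 library each. Standardised levels used every sum of a mouse and a cluster, with no minimum of cells. They were compared on log2(CPM + 10) by a two-sided exact permutation test. Neighbouring clusters were said to differ beyond the spread when the mean within-mouse log2 difference exceeded its SD and had the same sign in every mouse with both clusters. All 9 members are described. The 5 pathway lists are given by counts, and at most 4 genes of a list that passed the test are named, by the widest difference, except for a gene that is not reported here. Genes most like a member were taken by Pearson's r over log2 levels of the 49 sums of a mouse and a cluster, among genes with a mean of at least 20 CPM.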

Additional observations from a re-analysis of the deposited data

Results flagged for a closer look

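The spread between mice was checked in 58 groups of 4 or 6 mice for a single value far from the others, and 5 such values were found, where chance gives about 1 in 20 groups. In the macrophage-like cells of 6 mice, Csf2ra was low in control mouse 4, at 24.4 CPM, and the gap to the next mouse was 0.7308 of the whole range. In the same cells Csf2rb2 was high in control mouse 4, at 48.7 CPM (0.6991 of the range), and Csf3r was low in cKO mouse 8, at 23.7 CPM (0.7054 of the range). Without control mouse 4 the log2 fold change of Csf2ra between macrophage-like and monocyte-like cells was -0.57, the same as with it. The ligand Csf3 was highest in control mouse 4 among control mice, at 1.68 CPM (0.8421 of the range), and in cKO mouse 7 among cKO mice, at 37.4 CPM (0.8363). Each of these gaps was above Dixon's critical value for its number of mice.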

How the results depend on the processing

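Of the 9 members, 0 were called between conditions in all cells, against 2 by DESeq2, 2 by the likelihood ratio test, 1 with no filter on low counts and 0 to 1 with each mouse left out. These calls were Csf3r (adjusted p = 0.0429 by DESeq2 and 0.0187 by edgeR's likelihood ratio test) and Il10rb (0.0356 and 0.0293 by the same tools). Over all genes the count was 510, against 1038 by the likelihood ratio test, 787 with no filter, 322 without the lymphoid-like, stromal-like and dendritic cell-like clusters and 145 to 712 with each mouse left out. Without those clusters the signs of Csf1r (-0.38), Tgfbr1 (-0.36) and Il10ra (-0.26) turned. Pathway calls in all cells numbered 5, against 8 by DESeq2, 9 by the likelihood ratio test, 2 without those clusters, 3 without control mouse 3 and cKO mouse 5 and 0 to 8 with each mouse left out.

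Between macrophage-like and monocyte-like cells, 7 members were called, against 4 with the low-depth cluster alone, where Csf1r (-0.38) and Tgfbr1 (-0.21) turned, and 5 to 7 with each mouse left out. The 4 called with the low-depth cluster alone (Csf2ra, Csf2rb, Csf3r and Il10ra) were all lower in macrophage-like cells. Csf2rb2 turned with graph clustering (0.31), the full-depth cluster alone (0.0736), control mice alone (0.15) and without cKO mouse 7 (0.0344). Il10ra turned with the full-depth cluster alone (0.0517), control mice alone (0.19) and without cKO mouse 8 (0.11). With each mouse left out, Csf2rb2 lay between -0.33 and 0.0344 and Il10ra between -0.28 and 0.11. Over all genes the count was 1947, against 1226 by DESeq2, 1288 in control mice alone and 1124 in cKO mice alone. The choices of macrophage-like cluster and of mice of 1 condition were made after seeing the data, as was the sum of both macrophage-like clusters for the condition effect.

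For standardised levels, 1 member passed, against 0 with graph clustering and 1 to 2 with each mouse left out. Csf2rb2 turned without control mouse 4 (0.18) or cKO mouse 5 (0.24), Csf3r without control mouse 2 (-0.01), cKO mouse 5 (-0.00522) or cKO mouse 7 (-0.0461), and Il10ra without cKO mouse 7 (0.00354). Their ranges were -0.24 to 0.24, -0.0461 to 0.18 and -0.16 to 0.00354. Where a setting changed a value, the cause was not tested. The counts of 0 within clusters and for the difference between clusters held in every alternative run. Members whose share of cells was highest in the full-depth macrophage-like cluster numbered 3 at each depth, but without thinning Il10ra took the place of Csf1r. No paired analysis was possible because control mice are numbered 1 to 4 and cKO mice 5 to 8 and share no number. Few UMIs in the low-depth cluster, under 20 per member for 7 members in the 6 mice with at least 20 of its cells together, limit what could be detected there.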
